A study of Homo sapiens with 2 samples.

Results

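The mitochondrial respiratory chain moves electrons from NADH and succinate to oxygen through complexes I to IV and uses the proton gradient this builds to make ATP at complex V, the ATP synthase. Complexes I, III, IV and V combine subunits encoded in mitochondrial DNA with many more encoded in the nucleus, and complex II is encoded in the nucleus alone. Cultured colon carcinoma cells draw on both this pathway and glycolysis. The nuclear genes described here were chosen by symbol: probes on both arrays whose gene began with the names of complex I subunits (NDUFA, NDUFB, NDUFC, NDUFS or NDUFV with a number), of complex II (SDHA to SDHD), of complex III (UQCR, with CYC1), of complex IV (COX names numbered from 4 to 8 with a letter from A to C) or of complex V (ATP5 with a letter). This took 100 of 24459 probes, for 90 of 18638 gene symbols. Of the 90, RefSeq counts 9 as pseudogenes. NDUFA6-DT is a divergent transcript, NDUFC2-KCTD14 a readthrough gene, and ATP5IF1 an inhibitor of the ATP synthase. The remaining 78 symbols are treated as subunit genes, 35 of complex I, 3 of complex II, 8 of complex III, 15 of complex IV and 17 of complex V.

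Both arrays held RNA of SW620, an established human colon carcinoma line. The control group was 1 array of cells carrying a control lentivirus, and the CDR1AS group 1 array of cells made to express CDR1AS, a circular RNA known to bind miR-7, so that transcripts differing with it could be looked for. Neither the promoter that drives CDR1AS nor whether each culture was a clone or a pool is stated in the sources used here. Since each group is a single array, nothing below carries a replicate error or a p-value, and a difference between the groups cannot be told apart from one between any 2 cultures or hybridisations.

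The value of a spot is its deposited brightness, given below for the control cells first and the CDR1AS cells second. A spot counted as above background where it exceeded the mean of 384 blank spots by 2 SD, which put the limit at 69.1 for the control cells and 72.1 for the CDR1AS cells. Ratios are differences of normalized log2 intensity, CDR1AS minus control, for the brightest probe of each gene. Where a gene was under the limit on 1 array, its value there was first raised to the lowest value above the limit on that array. This can turn the sign of a ratio near 0. Every measured member was above the limit on both arrays, so none was raised. Within an array, 24 repeated spots of a positive control varied by an SD of at most 0.24 (log2), the only error measured here. Of 9 epithelial markers, 8 exceeded the limit in control cells and 9 in CDR1AS cells, with summed spots of 65965 and 55442. KRT18 (56040 and 47565) and EPCAM (8538 and 6334) made up most of that sum. CDX2 had 170 and 109 (log2 ratio −0.82), and CDX1 (83.2 and 83.4) was close to the limit. By log2 ratio 6 of the 9 were below 0 and 3 above it: VIL1 (607 and 755, 0.19), GPA33 (254 and 309, 0.17) and KRT20 (82.8 and 92.4, 0.09). CDH17 (67.9 and 73.3), under the limit in control cells, was among the 6 only because its control value was raised. Without that its ratio was 0.03. Of 4 leukocyte markers 3 were above background on both arrays, at most 201 and 203 for LYZ, and PTPRC was on neither (summed spots of 472 and 478). Of 6 fibroblast markers 3 were above background on both, at most 236 and 243 for DCN, and the collagen genes COL1A1, COL1A2 and COL3A1 were on neither (775 and 785). Of 4 endothelial markers 2 were above background in control cells and 4 in CDR1AS cells (355 and 394), with PECAM1 at 66.4 and 98.3. The part of other cell types in the results below was not tested.

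Without local background subtraction, subunit genes of the respiratory chain were mostly slightly lower on the CDR1AS array. In the main setting none was past 2-fold. In RNA of a whole culture, fewer cells with a transcript and less of it per cell cannot be told apart. Of the 90 symbols, 89 were above background on both arrays. The exception was COX7B2, a testis isoform, which was above background on neither. Of the 89, 68 had a log2 ratio below 0 and 20 above 0, where 52.7% of all 16685 measured genes were below 0. The median was −0.20 over the 89, −0.17 over the 77 measured subunit genes and −0.01 over all genes. Of the 77, 66 lay in the brightest 10% of all genes, so the genes of that range are the closer background: 50.5% of its 1669 genes were below 0 and their median was −0.01. The 66 subunit genes in it had a median of −0.24, with 52 below 0, and the 11 dimmer ones a median of 0.05, with 4 below 0. The 66 were brighter than the range as a whole, so it was not fully matched to them. Their median log2 level on the control array was 11.5, against 10.7 for the range.

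Many of these differences were no larger than the largest control-spot SD. That SD describes single spots within 1 array. A difference between 2 arrays carries more error than that, so the counts past it do not mark genes as changed. Of 77 subunit genes, 36 were lower by more than the largest control-spot SD, 6 were higher by more than it and 35 lay within it. Of the genes in the brightest 10%, 20.5% were lower and 18.9% higher by more than that SD, and of all 16685 genes 1829 and 1843. At the wider mark of 1.5-fold, 7 subunit genes were lower (NDUFA6, UQCR10, ATP5MC1, NDUFB10, NDUFB1, NDUFC1 and COX7B) and 2 were higher (UQCR11 and NDUFB3). At this mark 2.23% of all genes were lower and 2.62% higher, against 4.25% and 4.61% of the brightest 10%. Past 2-fold there were 0 members, where the background was 1.33% of all genes and 1.86% of the brightest 10%.

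**Figure D1:**
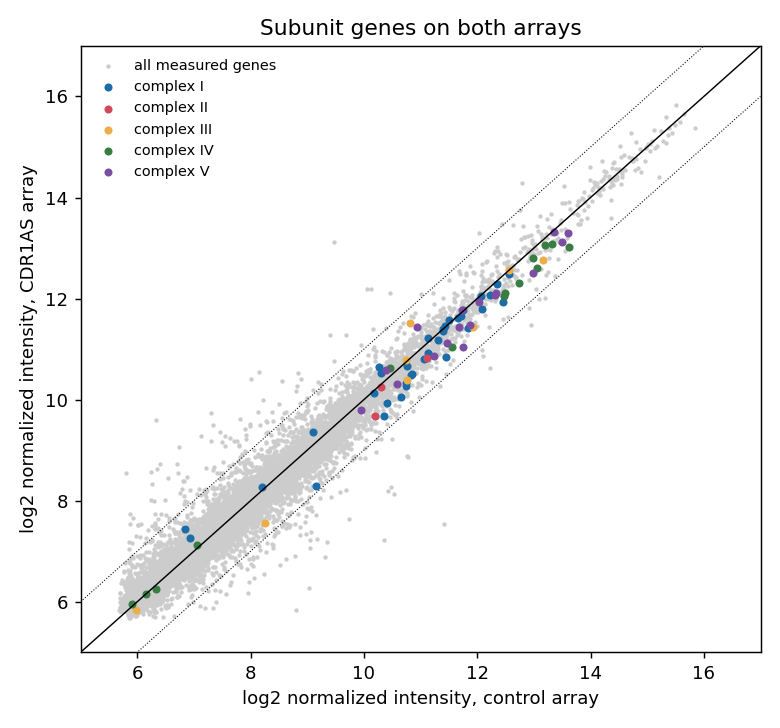
Normalized log2 intensity on the control array (horizontal) and the CDR1AS array (vertical) for all 16685 measured genes (grey) and the 77 subunit genes coloured by complex; the solid line marks equal intensity and the dotted lines 2-fold. Most subunit genes sit in the bright range just under the line of equality, and none reaches a dotted line.

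By complex, the medians were −0.07 for complex I (35 genes), −0.28 for complex II (3 genes), −0.25 for complex III (8 genes), −0.20 for complex IV (14 genes) and −0.25 for complex V (17 genes). Complex I thus had the median nearest 0, and its genes were also widely spread, with quartiles of −0.38 and 0.03. Complex V had the largest share below 0 among the complexes with more than 3 measured genes, 14 of 17, against 24 of 35 in complex I, 5 of 8 in complex III and 10 of 14 in complex IV.

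**Figure D2:**
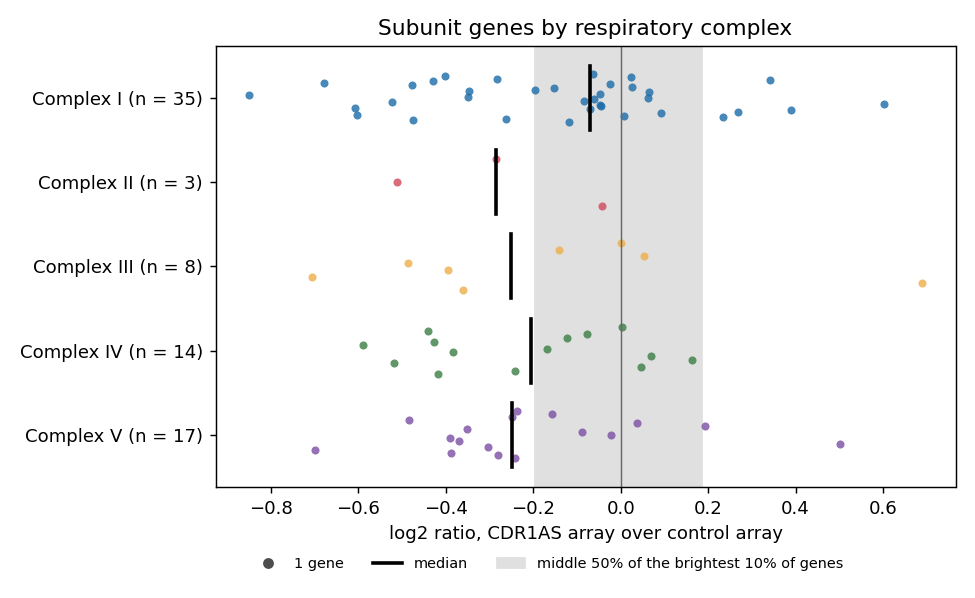
Log2 ratio of the CDR1AS array over the control array for each measured subunit gene, by complex; black bars are medians and the grey band spans the quartiles of the brightest 10% of all genes (−0.20 to 0.19). The medians of complexes II, III and V lie below the band, that of complex IV at its lower edge and that of complex I within it, and every complex except complex II has genes on both sides of 0.

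Parts of 4 promoters are shown because their genes form pairs with opposite ratios, and they were chosen after the values were seen: NDUFA6 of complex I was the lowest subunit gene and ATP5ME of complex V the third highest, while UQCR10 and UQCR11, small subunits of complex III, were the second lowest and the highest. The factors NRF1, GABP (an ETS protein) and YY1 are known to act at many promoters of this pathway. Each line gives the 250 bases before the RefSeq start of the gene on GRCh38.p14, 5′ to 3′ on the gene's strand. Capitals mark matches on either strand to an NRF1 core (GCATGCGC) or an ETS core (CCGGAAG).
NDUFA6, chr22:42090773-42091022, minus strand: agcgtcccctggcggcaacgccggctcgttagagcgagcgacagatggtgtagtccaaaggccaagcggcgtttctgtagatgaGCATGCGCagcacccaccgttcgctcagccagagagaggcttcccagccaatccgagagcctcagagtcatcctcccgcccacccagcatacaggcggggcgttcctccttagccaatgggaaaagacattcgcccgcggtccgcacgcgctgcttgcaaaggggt
ATP5ME, chr4:674277-674526, minus strand: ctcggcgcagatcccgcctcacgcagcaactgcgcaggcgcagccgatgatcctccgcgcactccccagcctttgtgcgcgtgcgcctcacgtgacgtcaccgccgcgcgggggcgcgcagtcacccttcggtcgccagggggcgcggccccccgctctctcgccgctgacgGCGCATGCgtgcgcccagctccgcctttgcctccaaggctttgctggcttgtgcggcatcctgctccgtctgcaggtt
UQCR10, chr22:29767119-29767368, plus strand: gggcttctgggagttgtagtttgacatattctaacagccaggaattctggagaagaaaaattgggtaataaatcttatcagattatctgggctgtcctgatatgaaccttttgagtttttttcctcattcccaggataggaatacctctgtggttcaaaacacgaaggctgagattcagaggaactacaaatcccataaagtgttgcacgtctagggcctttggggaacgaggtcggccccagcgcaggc
UQCR11, chr19:1605463-1605712, minus strand: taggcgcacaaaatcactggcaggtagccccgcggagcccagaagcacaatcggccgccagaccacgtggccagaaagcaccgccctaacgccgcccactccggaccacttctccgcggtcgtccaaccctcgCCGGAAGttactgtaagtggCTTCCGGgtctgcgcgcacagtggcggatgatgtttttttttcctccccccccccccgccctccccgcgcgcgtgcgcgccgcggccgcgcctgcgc

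The NRF1 core thus stood in the window of both a gene that was lower and one that was higher, the ETS core stood at 2 places in that of UQCR11, and neither stood in that of UQCR10. RefSeq promoters of 300 bases (250 before and 50 after the start) were at hand for 64 of the 77 subunit genes and for 27305 genes in all. The NRF1 core was in 12 of the 64 (18.8%), in 3.27% of all promoters and in 4.26% of those of 15843 protein-coding genes. The ETS core was in 18 (28.1%), against 10.7% of all and 14.2% of coding promoters. The YY1 core AAGATGG was in 15 (23.4%), against 6.06% and 6.40%, all counted on both strands. In these 300 bases ATP5ME also had the ETS and YY1 cores and NDUFA6 the YY1 core, which the 250 bases shown above do not hold. The median log2 ratio of subunit genes with the NRF1 core was −0.05 and of those without it −0.24. With and without the ETS core the medians were −0.16 and −0.26, and with and without the YY1 core −0.09 and −0.24. A match is a description of letters, not of binding.

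Complex I, NADH:ubiquinone oxidoreductase, is an L-shaped enzyme. Its NADH-oxidising (N) module and ubiquinone-binding (Q) module form the matrix arm, and the proximal and distal parts of the membrane arm pump protons. The lowest member was NDUFA6, a small subunit that anchors the mitochondrial acyl carrier protein at the matrix arm. Its spot had a brightness of 558 in control cells and 341 in CDR1AS cells, 1.80-fold lower after normalization (log2 ratio −0.85). The local background around that spot was 50.1% of its brightness in control cells and 103% in CDR1AS cells, and the part of this in the ratio was not tested. NDUFA6-DT, transcribed away from the same start region, had spots of 87.6 and 84.0, close to the limit (−0.17).

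NDUFB10, a distal-arm subunit held by disulfide bonds, had spots of 1288 and 869 and was 1.60-fold lower (−0.68). NDUFB1, a small distal-arm subunit, had 2723 and 1890 (1.52-fold lower, −0.61). NDUFC1, of the proximal arm, had 1589 and 1123 (1.52-fold lower, −0.60). These 3 were brighter on the control array and lay far above the limit on both arrays.

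The highest member was NDUFB3, also of the distal arm, with spots of 124 and 194, 1.52-fold higher (0.60). NDUFA10, a proximal-arm subunit, followed with 1191 and 1657 (1.31-fold higher, 0.39), then NDUFS1, the iron-sulfur subunit of the N module, with 131 and 174 (0.34). NDUFB3 and NDUFS1 were dim, so the normalization compresses their folds, and in the authors' deposited table NDUFB3 had a log2 ratio of 1.04 and NDUFS1 of 0.62.

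As grouped here, the distal arm had 9 of 10 genes below 0, with NDUFB3 the exception, and a median of −0.21. The grouping counted NDUFB4 (0.06) with the proximal arm. Counted as a distal-arm gene, NDUFB4 would be another above 0 there, so the lower distal median depends in part on the grouping. The N module (10 genes) had 6 below 0 and a median of −0.08, the Q module (5 genes) 3 and −0.07, and the proximal arm (10 genes) 6 and −0.05. Past the largest control-spot SD, 5 distal-arm genes were lower and 1 was higher, against 4 and 2 in the N module, 1 and 0 in the Q module and 3 and 1 in the proximal arm. The conserved catalytic core did not share a direction: NDUFV1 (−0.35) and NDUFV2 (−0.40), the flavin and iron-sulfur subunits that take electrons from NADH, were lower, NDUFS8 (−0.20) and NDUFS3 (−0.07) were nearer 0, and NDUFS7 (0.23) and NDUFS1 were above it. The median of the 6 core genes was −0.13 and of the 29 supernumerary genes −0.06. With the local background subtracted, NDUFV1 turned to 0.72 and NDUFS7 to −0.02. NDUFV2 (−0.59), NDUFS8 (−0.09) and NDUFS3 (−2.55) then stayed below 0 and NDUFS1 (0.48) above it.

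**Figure D3:**
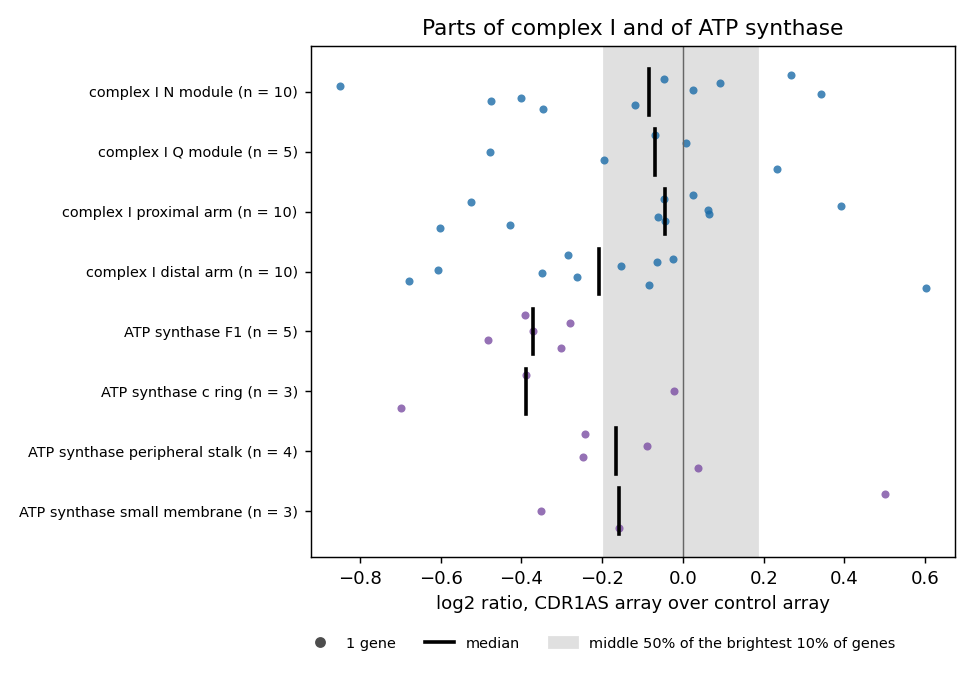
Log2 ratio of the CDR1AS array over the control array for genes of the 4 parts of complex I (blue) and of 4 parts of ATP synthase (purple); black bars are medians and the grey band the quartiles of the brightest 10% of all genes. The 5 F1 genes of ATP synthase lie close together between −0.48 and −0.28, while each part of complex I has genes on both sides of 0. NDUFB4 is plotted with the proximal arm.

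Complex II, succinate dehydrogenase, links the citric acid cycle to the chain. SDHA, its flavoprotein, had spots of 1135 and 873 (1.43-fold lower, −0.51). SDHD, a membrane anchor, had 2153 and 1871 (−0.28). The other anchor, SDHC, was nearly level at 1227 and 1287 (−0.04), and its second probe gave −0.10. All 3 ratios were below 0, but that of SDHC lay within the control-spot SD. SDHB was not analysed here.

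Complex III passes electrons from ubiquinol to cytochrome c. UQCR10, a small membrane subunit, had spots of 309 and 209 and was 1.63-fold lower (−0.71). CYC1, the cytochrome c1 subunit, had 3727 and 2857 (1.40-fold lower, −0.49), and UQCRH, the hinge protein that holds it, 8916 and 7088 (−0.40). UQCR11 went the other way, with 1777 and 3004 (1.61-fold higher, 0.69), the highest ratio of any subunit gene. The core proteins were split between UQCRC1 at 1684 and 1832 (0.05) and UQCRC2 at 1701 and 1402 (−0.36). With the local background subtracted, CYC1, UQCRH and UQCRC2 turned to 1.61, 5.17 and 0.97, while UQCR10 stayed below 0 (−0.12). UQCRQ had a ratio of 0 (spots of 5854 and 6273). UQCRB was barely above the limit, at 74.6 and 73.0 (−0.14). UQCRFS1 was not analysed here.

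Complex IV, cytochrome c oxidase, reduces oxygen. Its nuclear subunits surround a mitochondrially encoded core, and several have muscle, testis or general forms. COX7B was the lowest, at 11883 in control cells and 8650 in CDR1AS cells (1.51-fold lower, −0.59). COX5B, a matrix-side subunit, had 2934 and 2203 (1.43-fold lower, −0.52), and COX7A2, the general form of subunit 7A, had 8129 and 6460 (−0.44). The other probe of COX7A2 gave 0.43, with spots of 248 and 357, so the direction for this gene depends on the probe. COX5A (−0.43), COX6C (−0.42) and COX7C (−0.38) were lower by similar amounts. Among the genes the symbol rule took, the highest was COX7A2L, a supercomplex assembly factor related to COX7A2, at 1380 and 1614 (0.16). The subunit gene COX4I1, which the rule does not take and which is not in the median of the complex, was higher (0.46).

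The general forms COX6A1 (9106 and 9000, −0.12), COX6B1 (7845 and 7244, −0.17) and COX8A (9725 and 9051, −0.24) were bright on both arrays. Tissue forms were dim: the muscle forms COX6A2 (log2 levels of 6.16 on both arrays, ratio 0.00) and COX7A1 (91.8 and 93.0, −0.08) and the testis form COX8C (71.7 and 77.9, 0.05). The testis form COX6B2 (141 and 158, 0.07) was over 2 times the limit on both arrays. COX6A2, COX7A1 and COX8C were under 2 times the limit, and without them the median of the complex was −0.38. With the local background subtracted, COX6A1 turned to 5.80, COX5A to 0.14 and COX7A2L to −0.35. COX7B (−0.84), COX5B (−0.67), COX7A2 (−0.37), COX6C (−0.53), COX7C (−1.03), COX6B1 (−0.42) and COX8A (−1.14) then stayed below 0.

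Complex V is built from the catalytic F1 head, a rotating c ring, a peripheral stalk and small membrane subunits. All 5 F1 genes were lower when the local background was not subtracted: ATP5F1A (7904 and 6089, 1.40-fold lower, −0.48), ATP5F1C (3642 and 2950, −0.39), ATP5F1E (2361 and 1940, −0.37), ATP5F1B (11693 and 10533, −0.30) and ATP5F1D (1528 and 1324, −0.28). Each lay beyond the control-spot SD. With the local background subtracted their log2 ratios spread widely and 2 turned, to 6.17 for ATP5F1B and 4.24 for ATP5F1C, against −0.15 for ATP5F1A, −0.36 for ATP5F1D and −0.99 for ATP5F1E. The other probe of ATP5F1A was above background on neither array.

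The c ring was uneven although its 3 genes encode the same mature protein. ATP5MC1 was 1.62-fold lower (3305 and 2217, −0.70), ATP5MC2 was at 10581 and 9321 (−0.39), and ATP5MC3 was nearly level at 9939 and 10743 (−0.02). With the local background subtracted, these 3 gave 0.68, −0.45 and 0.22. In the peripheral stalk ATP5PD (−0.25) and ATP5PB (−0.24, other probe −0.11) were lower, and ATP5PO (−0.09) and ATP5PF (0.04, other probe 0.20) were near 0. The small membrane subunits included the highest gene of the complex, ATP5ME, at 1897 and 2853 (1.42-fold higher, 0.50), next to ATP5MF (−0.35) and ATP5MG (−0.16). Of the small accessory subunits ATP5MJ was at 1323 and 1577 (0.19) and ATP5MK at 4971 and 4617 (−0.24). The inhibitor gene ATP5IF1 was at 2547 and 2305 (−0.24).

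The 9 pseudogene symbols were all below 0, with a median of −0.25, from −0.46 for ATP5F1EP2 (4350 and 3411) to −0.01 for COX6B1P3 (91.5 and 96.6). Processed pseudogenes of this pathway are near-copies of their parent genes, so these probes may have bound parent transcripts, and their values are not independent of those of the subunit genes. For ATP5F1EP2 the parent ATP5F1E gave −0.37. For UQCRBP1 (1018 and 919, −0.28) the probe of the parent UQCRB was near the limit.

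Neighbouring genes on a chromosome were compared with each member, using the order of genes in RefSeq, after the values had been seen. The median log2 ratio of the 10 measured genes on each side was taken, and over all genes 95% of such medians lay between −0.10 and 0.11. Around NDUFB3 on chromosome 2 the median of the 20 neighbours was 0.24, with 19 of them above 0. Around NDUFS1 on the same chromosome it was 0.09, with 14 above 0. Around ATP5ME on chromosome 4 it was 0.09 over 17 neighbours, with 12 above 0. For NDUFA6, UQCR10, ATP5MC1 and UQCR11 the medians were −0.05, −0.03, 0.00 and 0.03. The neighbours of NDUFB10 on chromosome 16 had a median of −0.11, those of NDUFV1 on chromosome 11 −0.12, with 2 of 20 above 0, and those of COX8A, also on chromosome 11, −0.19. Altogether 4 of 77 subunit genes lay below the lower bound and 1 above the upper one. The part of these neighbourhoods in the members' ratios was not tested.

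Other genes of the pathway, in lists named by function, had 0 genes past 2-fold in the main setting, against 1.33% of all genes. That share is small, so a count of 0 in lists of this size says little. In the authors' deposited values PPARGC1A (−3.39) and SLC25A10 (−1.15) were past 2-fold lower. SDHAF4 (1.07), OPA1 (1.03) and GRPEL1 (1.001) were past 2-fold higher there, as against 5.58% of all genes either way. The PPARGC1A spot of the CDR1AS cells was below the limit. Assembly factors did not share the lower median of the subunits, but they were also dimmer. Their median log2 levels on the control array ran from 8.50 (complex V) to 9.40 (complex IV), against 11.4 for the subunits. The 11 subunit genes outside the brightest 10% had a median ratio of 0.05 as well. The part of level in this contrast was not tested. Of 18 assembly factors of complex I, 9 were below 0 (median −0.02), from NDUFAF4 (−0.43) to COA1 (0.35). Of 10 for complexes II and III, 2 were below 0 (median 0.20), with UQCC3 lowest (−0.78) and SDHAF4 highest (0.67). Of 22 for complex IV, 11 were below 0 (median −0.01). COA3 (−0.85), which stabilises newly made COX1 protein, was the lowest there, and CMC2 the highest (0.37). The 6 factors of complex V had a median of 0.05, from OXA1L (−0.40) to FMC1 (0.21).

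Subunits and electron carriers outside the symbol rule (15 genes) had 9 below 0 and a median of −0.05. COX4I1, the general form of COX subunit 4, had spots of 4153 and 6196 (0.46). Highest in this list was ETFB, at 3455 and 6092 (1.63-fold higher, 0.70), followed by its partner ETFA at 4791 and 7918 (0.62). The pair forms the electron transfer flavoprotein, which feeds electrons of fatty acid oxidation to ubiquinone. Lowest was COX20 (−0.29), an assembly factor that also stands among the 22 of complex IV. Subunits encoded in mitochondrial DNA were not analysed here.

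Among regulators of respiratory genes and mitochondrial DNA, 10 of 21 were below 0 and the median was 0.03. YY1 was the lowest (1158 and 854, −0.57) and POLG, the mitochondrial DNA polymerase, the highest (227 and 334, 0.47). NRF1 was at 154 and 155 (−0.10) and GABPA at 146 and 142 (−0.15). PPARGC1A had 89.8 and 71.9 (−0.49), the latter below the limit, and PPARGC1B 158 and 131 (−0.40, other probe −0.18). The other 11 of the 21 were above 0. Of 17 genes of the citric acid cycle and of pyruvate entry and dehydrogenase, 15 were below 0 (median −0.15), from PDHB, of pyruvate dehydrogenase (−0.53), to the pyruvate carrier gene MPC1 (0.19).

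Carriers and channels of the mitochondrial membranes were lower as well, with 10 of 12 below 0 and a median of −0.30. SLC25A10, the dicarboxylate carrier, was lowest (374 and 214, 1.95-fold lower, −0.96), and the ADP/ATP carrier SLC25A4 highest (0.19). SLC25A5, the form of that carrier typical of dividing cells, was 1.57-fold lower (10198 and 7097, −0.65). Import and cristae genes went both ways (14 of 26 below 0, median −0.04), between TIMM13, an import chaperone (1800 and 1041, −0.89), and GRPEL1, the exchange factor of mitochondrial HSP70 (773 and 1544, 0.92). Oxidant defence genes had 9 of 10 below 0 but a median of −0.11, from GLRX2 (−0.45) to SOD1 (0.02). GPX1 (66.2 and 72.9), under the limit in control cells, was among the 9 only because its control value was raised. Before that its log2 levels were 5.76 in control cells and 5.83 in CDR1AS cells, which would make it the highest of the list.

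**Figure D4:**
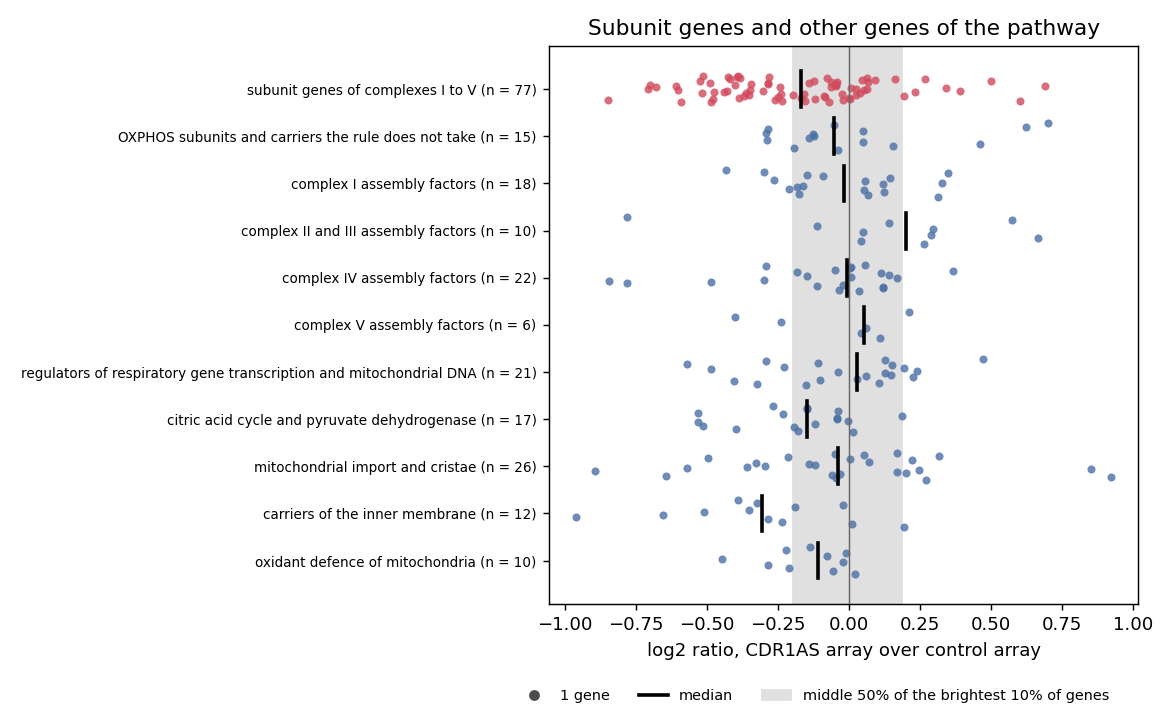
Log2 ratio of the CDR1AS array over the control array for the 77 subunit genes (red) and for 10 lists of other genes of the pathway (blue); black bars are medians and the grey band the quartiles of the brightest 10% of all genes. The membrane carriers have the lowest median (−0.30), and the assembly factors of complexes II and III have the highest (0.20).

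The treatment of the local background changed part of these results. Over the 77 subunit genes the local background had a median of 71.7% of the spot's brightness for control cells and 53.5% for CDR1AS cells, and it exceeded the spot itself for 7 of them in the former and 2 in the latter. Over the brightest 10% of all genes these medians were 69.3% and 39.9%. When the local background was subtracted, the medians of complexes III and V turned to 1.29 and 0.23, and 37 of 89 members were past 2-fold, 17 higher and 20 lower, where 8.19% of all genes were. Of the 89 members 53 were then below 0 (59.6%), close to the 56.2% of all genes. In every other setting tried, each complex kept a median below 0.

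**Figure D5:**
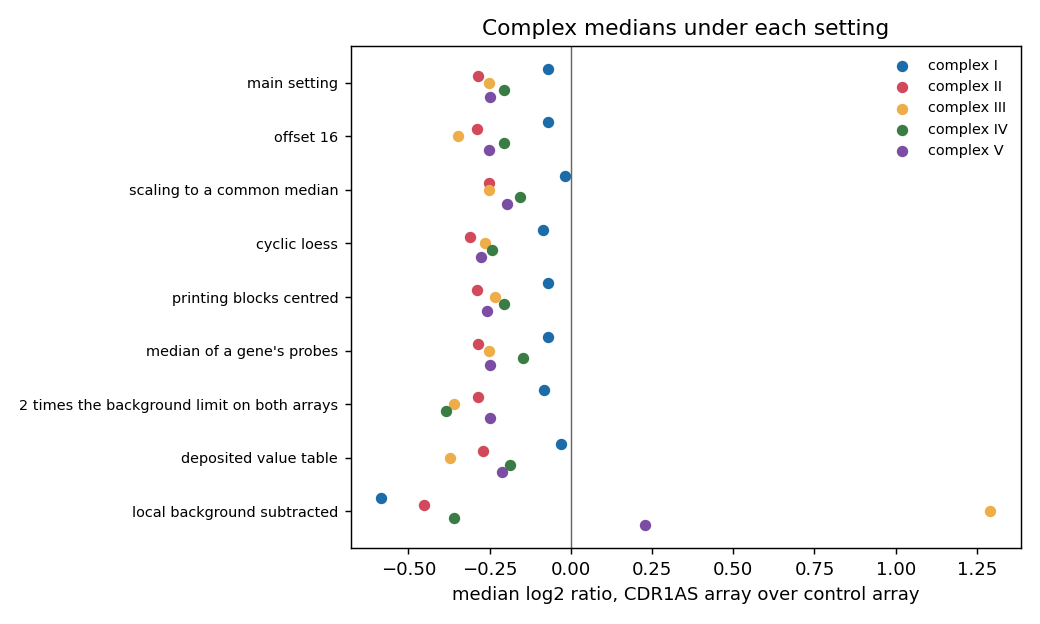
Median log2 ratio of each complex under the main setting and 8 others. The medians stay between −0.38 and −0.02 except when the local background is subtracted, where complex III is at 1.29 and complex V at 0.23.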

How the data were processed

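Total RNA of 2 SW620 cultures was measured on 1 one-colour array each. Per the labels' protocols, Trizol RNA was turned into amino allyl aRNA, which was coupled to Cy5. Per the file headers, the deposited intensity is the median spot brightness, read at 3 scanner gains, and the header does not say how these were joined. With limma 3.58.1 in R 4.3.3, intensities were corrected by normexp without the local background (offset 50), quantile normalized and put on the log2 scale. A quality flag removed 1 of 24460 probes. For each gene the brightest probe was used, provided 1 or both arrays showed it above background. In the main setting a value under the limit was raised to the lowest value above the limit on that array. The offset compresses folds of dim genes. Names came from the platform's annotation, and 21674 probes matched RefSeq by identifier. The authors' deposited table was a straight line of spot intensity (largest residual 0.0510 and 0.0559 units, both column medians 25, value 0 at spots of 65.8 and 69.4), linear and uncentred, and served as an alternative.

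All subunit genes are accounted for by counts. Both arrays' values are printed for the 3 lowest and 2 highest genes of a complex, complex II, CYC1, isoform pairs and genes past 1.5-fold, and for further genes beside them. In other lists the lowest and highest genes are named. Members and lists were chosen with earlier results of these data known. The steps were tested on simulated data.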

Additional observations from a re-analysis of the deposited data

How the results depend on the processing

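No paired analysis was possible because each group has 1 array. No alternative moved the overall median of the members by 0.1 (log2) or turned it, local background subtraction included, where it was −0.12. The share of members below 0 did move with that subtraction. It was 59.6% against 56.2% of all genes, where the main setting had 76.4% against 52.7%. That subtraction gave medians of −0.58 for complex I, −0.45 for complex II, 1.29 for complex III, −0.36 for complex IV and 0.23 for complex V, and 37 members past 2-fold. It changed the sign of 28 of the 77 subunit genes, against 7 with median scaling, 4 in the deposited value table and 2 with cyclic loess. In the deposited value table complex III had a median of −0.37 and 2 members were past 2-fold, NDUFB3 higher and UQCRB, near the limit, lower. A filter at 2 times the background limit on both arrays dropped dim genes and gave −0.36 for complex III and −0.38 for complex IV. Counting every symbol the rule takes, subtracting the median of each of 24 printing blocks and keeping subunit genes only were chosen after seeing the data. The planned moves of NDUFA4 between complexes and of ATP5S and ATP5SL out of complex V were not run, since these genes were not analysed here. Signal over background limits UQCRB, COX6A2, COX7A1 and COX8C, which were near the limit on both arrays.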
